A study of Rattus norvegicus with 8 samples.

Results

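The genes described here are 10 genes of bile acid synthesis and its feedback control in rat liver: the enzymes Cyp7a1, Cyp8b1, Cyp27a1, Cyp7b1, Cyp39a1, Hsd3b7 and Baat, the repressor Nr0b2, and the receptor Fgfr4 with its co-receptor Klb. Members were found by mapping the accession of every array probe to a RefSeq gene symbol. Of the 10, 9 had 1 probe each among 15201 tested genes and features, 9619 of them with a symbol, and no probe mapped to Klb. Liver RNA came from adult male Sprague-Dawley rats given PFOS (perfluorooctane sulfonate, a persistent fluorinated surfactant) in the diet at 50 mg/kg for 28 days, and from rats of the same strain, sex and age class on a control diet. Each group had 4 rats, with 1 array per rat. Every array carried the rat's liver RNA in the red dye Cy5 and a universal rat reference RNA in the green dye Cy3, and no dyes were swapped, so a log2 ratio is the liver signal over the reference signal of the same spot. Replicate numbers only name animals and pair nothing.

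Bile acids are made from cholesterol in hepatocytes, by a classic pathway that opens with Cyp7a1 and an acidic pathway that opens with Cyp27a1. In the liver, bile acids bind the nuclear receptor Nr1h4 (FXR), which induces the repressor Nr0b2 (SHP). In rodents the gut hormone Fgf15 also acts on hepatocytes through Fgfr4 and Klb, and both arms lower Cyp7a1 and Cyp8b1.

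All 9 measured members were well above background in Cy5 on all 8 arrays, so each passed the filter on dim probes in both groups. Median Cy5 signals per array were 116 to 160 over a local background of 71 to 75, and no spot was saturated. The number of arrays limits the precision of each value. The 8 hepatocyte markers (Alb, Apoa1, Ttr, Tat, Serpina1, Tf, Fga and Ahsg) were well above background on every array, with a summed Cy5 signal of 1220000 to 1340000 on PFOS arrays and 1390000 to 1510000 on control arrays. Of the 8, 1 passed the limma test in the ratio, Ahsg, which was lower in PFOS livers (-0.91, adjusted p = 0.00596). In Cy5 alone 3 passed, all lower in PFOS livers: Apoa1 (-1.80, limma adjusted p = 0.000145), Ahsg (-0.65, adjusted p = 0.00774) and Serpina1 (-0.29, adjusted p = 0.045). Of all tested features, 2.14% passed as lower in the ratio and 2.47% in Cy5. In either direction the shares were 3.99% and 4.69%. Apoa1 was also lower in the reference channel (-1.38, limma adjusted p = 0.0107). Tat was the 1 of the 8 above 0 in the ratio (0.84) and did not pass (limma adjusted p = 0.108). In Cy5 alone 5 of the 8 lay above 0, and the median change of the 8 was 0.01. Tat differed most of these 5, by 0.96, and did not pass (limma adjusted p = 0.0747).

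In the log2 ratio, 1 of the 9 measured members, Fgfr4, was lower in PFOS livers at a limma adjusted p (Benjamini-Hochberg over all 15201 features) under 0.05, and none was higher. Over all features, 3.99% passed the same test, 1.84% higher and 2.14% lower. Fgfr4 and Cyp8b1 were the members whose groups did not overlap, both lower in PFOS livers, against 6.89% of all features that lay apart in that direction and 12.8% in either. At an unadjusted p under 0.05, 4 members passed (Fgfr4, Cyp8b1, Cyp7a1 and Nr0b2), against 19.9% of all features. The median change of the 9 was -0.07 and that of all features was -0.01, both on the log2 scale as PFOS minus control.

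**Figure D1:**
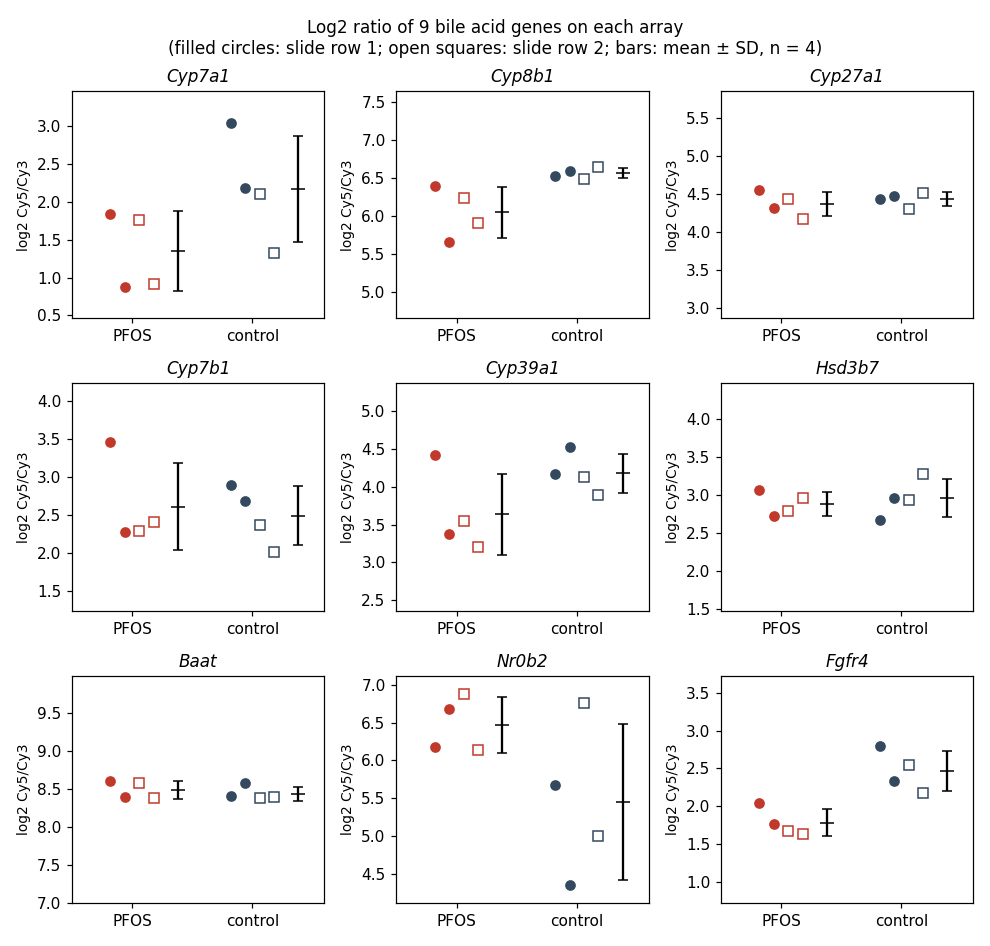
Log2 ratio of liver (Cy5) over reference (Cy3) of the 9 measured members, with 1 point per array, PFOS arrays left of control arrays, bars at the mean ± SD (n = 4), filled circles for slide row 1 and open squares for slide row 2. The PFOS points of Fgfr4 (1.64 to 2.04) and Cyp8b1 (5.65 to 6.39) lie below all their control points, and the control points of Nr0b2 spread from 4.36 to 6.76.

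Fgfr4 is the receptor tyrosine kinase through which the gut hormone reaches hepatocytes. Its log2 ratio was 2.04, 1.77, 1.68 and 1.64 on PFOS arrays 1 to 4, against 2.80, 2.34, 2.54 and 2.18 on control arrays 1 to 4. All 4 PFOS values lay below all 4 control values. The group means were 1.78 ± 0.18 in PFOS livers and 2.46 ± 0.27 in control livers (SD, n = 4 each). The change was -0.68 (SE 0.14, 95% interval -1.01 to -0.36, limma adjusted p = 0.035), a ratio in PFOS livers of 0.623 of that in control livers. The probe had 2 spots per array and was dim, with a Cy5 signal of 174 to 398 over the 8 arrays. In bulk tissue, fewer cells of a type and less RNA per cell cannot be told apart. The change was similar in the 2 rows of the slide, at -0.66 and -0.70, each with 2 arrays of a group and neither past the threshold alone. The call was lost when PFOS array 2, 3 or 4 or control array 1, 2 or 3 was left out, with changes of -0.73 to -0.57, and was kept without PFOS array 1 (-0.77) or control array 4 (-0.78). The promoter of Fgfr4 is shown because it is the member called in the ratio. The RefSeq window of 300 bases around its start (GRCr8, chr17:9481340-9481639, minus strand) holds AGGTCA, a motif bound by many nuclear receptors, in capitals.
Fgfr4: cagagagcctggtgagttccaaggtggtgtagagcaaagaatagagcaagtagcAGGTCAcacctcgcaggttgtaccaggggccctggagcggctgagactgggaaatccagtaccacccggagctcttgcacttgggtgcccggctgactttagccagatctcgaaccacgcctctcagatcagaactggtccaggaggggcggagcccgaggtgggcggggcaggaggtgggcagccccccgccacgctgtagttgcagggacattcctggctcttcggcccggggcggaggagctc
AGGTCA was searched on both strands and stands in 16.2% of 33469 rat promoters of this length, also those of Cyp27a1 and Cyp39a1 among the 8 members with an entry. It is a match of letters, not a site.

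Cyp8b1 is the sterol hydroxylase that directs bile acid synthesis towards cholic acid. Its log2 ratio was 6.39, 5.65, 6.24 and 5.90 on PFOS arrays 1 to 4, against 6.53, 6.59, 6.49 and 6.64 on control arrays 1 to 4. The PFOS values lay below every control value, and they were also the more spread, with an SD of 0.33 in PFOS livers and 0.07 in control livers (n = 4 each). The difference in the ratio was -0.51 (SE 0.15, 95% interval -0.85 to -0.18) and did not pass the adjusted test (limma adjusted p = 0.102). With the scanner's processed signals it was 0.21. The promoter of Cyp8b1 (GRCr8, chr8:130457543-130457842, minus strand) is shown because this member passed the test in the liver channel, as given further on. It holds, in capitals, a direct repeat of AGGTCA with 1 base between the copies and 1 mismatch in each copy.
Cyp8b1: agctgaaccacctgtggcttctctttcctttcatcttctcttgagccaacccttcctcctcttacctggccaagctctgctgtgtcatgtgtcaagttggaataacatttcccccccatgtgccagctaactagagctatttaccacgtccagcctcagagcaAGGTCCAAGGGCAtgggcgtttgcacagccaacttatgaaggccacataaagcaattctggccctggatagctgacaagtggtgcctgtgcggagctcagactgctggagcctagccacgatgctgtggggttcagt
This looser motif, with up to 1 mismatch allowed in each copy, was chosen after the letters were seen, was searched on both strands, and stands in 2.26% of the 33469 promoters and in no other member window. The exact direct repeat and the exact inverted repeat, each with 1 base between, stood in 0.0538% and 0.0269% of all promoters and in none of the 8 member windows.

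Cyp7a1 is the rate-limiting enzyme of the classic pathway. Its log2 ratio was 1.84, 0.88, 1.76 and 0.91 on PFOS arrays 1 to 4, against 3.04, 2.18, 2.10 and 1.33 on control arrays 1 to 4. The groups overlapped through control array 4, which lay below PFOS arrays 1 and 3, while control array 1 was the highest of all. The difference was -0.82 (SE 0.36, 95% interval -1.62 to -0.01) and did not pass (limma adjusted p = 0.246). With another treatment of the background it was larger, at -1.38 with normexp at offset 0 and -1.28 with the scanner's processed signals, and did not pass either. It was -1.25 in slide row 1 and -0.38 in slide row 2, and -0.52 without control array 1. The probe had 10 spots per array, with a mean SD between spots of 0.207, and was dim. Its Cy5 signal was 172.5, 118, 146 and 107.25 on PFOS arrays and 277.5, 196, 172 and 122.5 on control arrays. It was not well above background in Cy3 on any of the 8 arrays.

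Nr0b2 is the small heterodimer partner, a nuclear receptor without a DNA-binding domain that represses Cyp7a1 and Cyp8b1. Its log2 ratio was 6.18, 6.68, 6.87 and 6.14 on PFOS arrays 1 to 4, against 5.68, 4.36, 6.76 and 5.00 on control arrays 1 to 4. The PFOS values were close together, and control array 3 lay among them, while the other control arrays lay below every PFOS array. The SD was 0.36 in PFOS livers and 1.03 in control livers, the widest spread of the 9 members in control livers. The difference was 1.02 (SE 0.44, 95% interval 0.02 to 2.02) and did not pass (limma adjusted p = 0.24). It was 0.66 without control array 2 and 1.46 without control array 3, and neither passed. The promoter of Nr0b2 (GRCr8, chr5:151062910-151063209, plus strand) is shown because this repressor stands between the receptor and the enzymes. Its TATAAA is in capitals.
Nr0b2: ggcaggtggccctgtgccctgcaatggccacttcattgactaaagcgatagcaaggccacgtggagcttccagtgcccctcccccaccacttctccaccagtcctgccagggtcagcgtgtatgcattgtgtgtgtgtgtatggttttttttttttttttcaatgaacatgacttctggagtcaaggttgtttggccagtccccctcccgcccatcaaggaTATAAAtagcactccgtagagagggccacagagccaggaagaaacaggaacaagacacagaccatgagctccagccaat
TATAAA was searched on both strands, stands in 14.2% of the 33469 promoters, and was in no other member window.

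Of the remaining enzymes, none passed the test in the ratio. Cyp39a1, which hydroxylates oxysterols in a side route, had log2 ratios of 4.41, 3.37, 3.55 and 3.20 on PFOS arrays 1 to 4, against 4.17, 4.52, 4.12 and 3.89 on control arrays 1 to 4. PFOS arrays 2, 3 and 4 lay below all control arrays, and PFOS array 1 lay above 3 of them. The difference was -0.55 (SE 0.25, limma adjusted p = 0.263). Without PFOS array 1 it was -0.81 and passed (limma adjusted p = 0.0374), the 1 of 22 alternatives in which it did. Without PFOS array 4 it was -0.40 and did not pass (limma adjusted p = 0.428). In Cy5 alone Cyp39a1 differed by -0.15 (limma adjusted p = 0.441), and by -0.21 without PFOS array 1 (adjusted p = 0.365). Its mean SD between spots in the ratio, 0.329, was the largest of the members. The Cy3 signal of this probe stood out on PFOS array 4, at 108.5 against 43.5 to 49.5 on control arrays, and the part of this in the ratio of that array was not tested.

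Cyp7b1, the oxysterol hydroxylase of the acidic pathway, ranged from 2.28 to 3.46 in PFOS livers and from 2.01 to 2.90 in control livers, with PFOS array 1 highest. Its difference was 0.12 with PFOS array 1 and -0.16 without it. Cyp27a1, the mitochondrial enzyme that opens the acidic pathway, differed by -0.06 (SE 0.10, 95% interval -0.28 to 0.16). Hsd3b7, the dehydrogenase shared by both pathways, differed by -0.07 (SE 0.13, 95% interval -0.37 to 0.23). Baat, which joins bile acids to taurine or glycine, differed by 0.05 (SE 0.09, 95% interval -0.15 to 0.25). For the last 3 the 95% intervals hold no change beyond 0.37 in either direction, and the limma adjusted p of these 4 genes was 0.771 to 0.852.

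**Figure D2:**
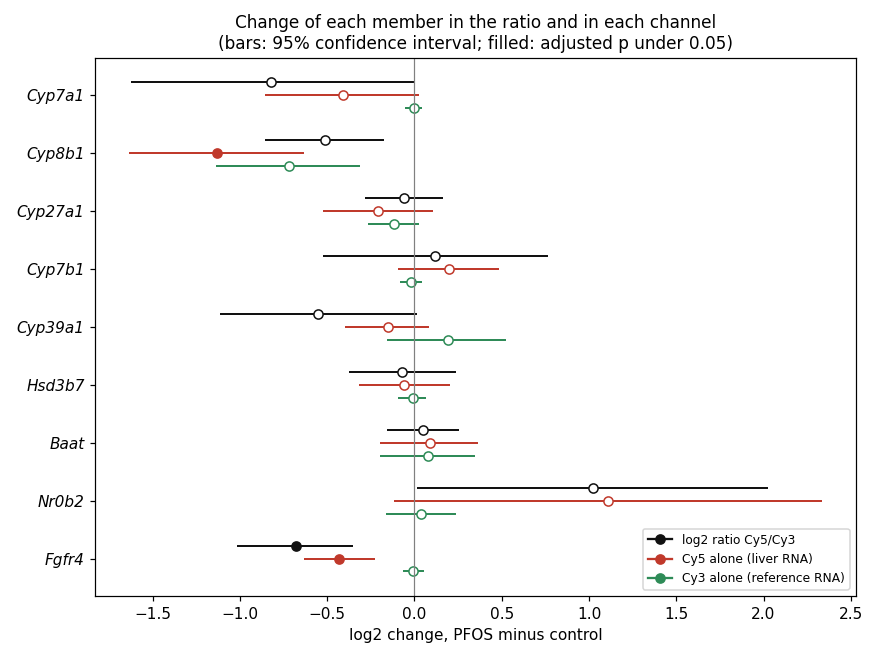
Change of each measured member, PFOS minus control, in log2 units, with its 95% interval from limma, for the ratio and for each channel alone. Fgfr4 lies below 0 in the ratio (-0.68) and in Cy5 (-0.43), Cyp8b1 reaches -1.13 in Cy5, and the Cy3 value of Cyp8b1 is -0.72.

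The liver channel by itself gave a different order. In Cy5 alone, quantile-normalized between arrays, 2 of the 9 members passed the limma test, Cyp8b1 and Fgfr4, both lower in PFOS livers, against 2.47% of all features that passed in that direction and 4.69% in either. No other member had an unadjusted p under 0.05, against 20.9% of all features that did, and the median change of the 9 was -0.15, against -0.01 for all features. Cyp8b1 had log2 Cy5 values of 11.66, 10.96, 11.55 and 11.02 on PFOS arrays 1 to 4, against 12.32, 11.97, 12.91 and 12.53 on control arrays 1 to 4. The groups did not overlap, as for 7.34% of all features in that direction and 13.4% in either. The change was -1.13 (SE 0.22, 95% interval -1.63 to -0.64, limma adjusted p = 0.0211), or 0.456 of the control level. It was -0.83 in slide row 1 and -1.43 in slide row 2, and the call was lost without PFOS array 2 (-1.02, adjusted p = 0.0525) or control array 4 (-1.10, adjusted p = 0.059).

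Fgfr4 had log2 Cy5 values of 7.71, 7.69, 7.79 and 7.71 on PFOS arrays 1 to 4, against 8.32, 7.94, 8.24 and 8.13 on control arrays 1 to 4. The PFOS values were within 0.10 of each other and all lay below the control values. The change was -0.43 (SE 0.09, 95% interval -0.63 to -0.23, limma adjusted p = 0.0261), or 0.741 of the control level. The call was kept with control array 2 left out (-0.50) and lost with each other array left out, at -0.45 to -0.38. With slide column as a block the call of Fgfr4 was lost (limma adjusted p = 0.0557). Cyp7a1 differed by -0.41 in Cy5 (SE 0.19, limma adjusted p = 0.263), passed with slide column as a block (adjusted p = 0.0455), and differed by -0.97 with processed signals without passing. Nr0b2 differed by 1.11 (SE 0.54, limma adjusted p = 0.279). Without control array 3, Nr0b2 passed in Cy5 at 1.66 (limma adjusted p = 0.0497), the 1 of 17 alternatives in which it did. Without control array 2 its change was 0.66 (limma adjusted p = 0.479).

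The reference channel carried, per the labels, the same universal reference on every array. In Cy3 alone, 0 of the 9 members passed the limma test and 1, Cyp8b1, had an unadjusted p under 0.05, against 0.0789% and 3.61% of all features. Cyp8b1 had log2 Cy3 values of 7.36, 6.99, 7.25 and 6.99 on PFOS arrays 1 to 4, against 7.77, 7.48, 8.37 and 7.86 on control arrays 1 to 4. All PFOS values lay below all control values, as for 153 of the 15201 features (1.01%), while 210 lay apart in the other direction. Within each group the array highest in Cy3 was also the highest in Cy5. The Cy3 change of Cyp8b1 was -0.72 (SE 0.18, 95% interval -1.13 to -0.32), with an unadjusted p of 0.00315 and a limma adjusted p of 0.776. The ratio of Cyp8b1 (-0.51) is thus the smaller of its changes in the ratio and in Cy5 alone, and the part of the Cy3 difference in the ratio was not tested. The Cy3 changes of Fgfr4 (-0.01) and of Cyp7a1 (-0.0022) were near 0.

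**Figure D3:**
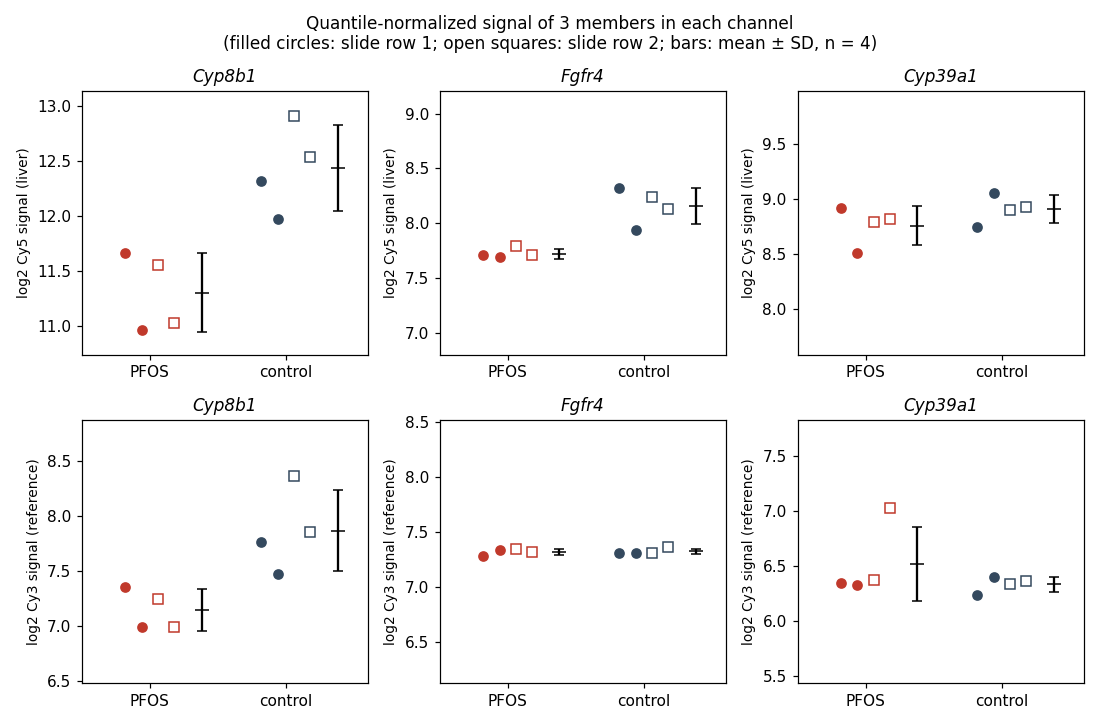
Log2 signal of the liver channel (Cy5) and of the reference channel (Cy3) on each array, for Cyp8b1, Fgfr4 and Cyp39a1, PFOS arrays left of control arrays, with bars at the mean ± SD (n = 4). Filled circles are slide row 1 and open squares slide row 2. Cyp8b1 is lower on all 4 PFOS arrays in both channels, whereas the Cy3 values of Fgfr4 stay between 7.28 and 7.36.

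By the difference in their log2 ratios over the 8 arrays, each centred on the gene's own mean, the genes most like Cyp7a1 among 9619 with a symbol were Prtg (root mean square difference 0.245), Sbk1 (0.26) and Ankrd33b (0.304), where the median gene differed by 0.685. Those most like Cyp8b1 were Nags (0.105), Csnk1g3 (0.108) and Cdh1 (0.119), against a median of 0.363. Those most like Nr0b2 were Igfbp1 (0.301), Nr1i3 (0.441) and Enc1 (0.442), against a median of 0.859. None of these 9 genes passed the limma test in the ratio.

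The other genes of the pathway were read from lists of enzymes, transporters and regulators. Of 14 other enzymes of bile acid formation, activation, conjugation and sulfation, 12 were tested, and in the ratio 2 rose and 2 fell, against 1.84% of all features higher and 2.14% lower. Hsd17b4, the bifunctional peroxisomal enzyme of bile acid side-chain shortening, rose by 0.70 (SE 0.12, limma adjusted p = 0.0132), and Acot8, a peroxisomal thioesterase, rose by 0.36 (SE 0.08, limma adjusted p = 0.0474). Scp2, the peroxisomal thiolase and sterol carrier, fell by 0.36 (SE 0.08, limma adjusted p = 0.0372), while in Cy5 alone it differed by -0.14 (limma adjusted p = 0.275) and in Cy3 by 0.17. Sult2a1, a sulfotransferase of bile acids, fell by 1.06 (SE 0.19, limma adjusted p = 0.0181). The median change of the 12 was 0.18.

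Hsd17b4 had log2 ratios of 4.20, 4.38, 4.15 and 3.96 on PFOS arrays 1 to 4, against 3.23, 3.63, 3.49 and 3.56 on control arrays 1 to 4, with no overlap. Sult2a1 had 7.29, 7.06, 7.75 and 7.51 on PFOS arrays 1 to 4, against 8.54, 8.63, 7.97 and 8.70 on control arrays 1 to 4. Its groups did not overlap either, and control array 3 lay nearest the PFOS arrays. In Cy5 alone, Hsd17b4 (0.58), Acot8 (0.37) and Slc27a2 (0.61), a very long-chain acyl-CoA synthetase, were higher and Sult2a1 (-2.15) was lower, each past the limma test, which 4.69% of all features passed in Cy5. Slc27a2 did not pass in the ratio (0.47, limma adjusted p = 0.0874). Sult2a1 also differed in Cy3, by -1.08 (limma adjusted p = 0.083), and its ratio had the opposite sign with the scanner's processed signals (0.37, not past the test). The Sult2a genes are near-identical copies, so its signal may come from more than 1 of them. The probe of Sult2a6 differed by 0.13 in the ratio and 0.19 in Cy5 (limma adjusted p = 0.948 and 0.915). Sult2a2 was not tested. The calls of Scp2 and Acot8 in the ratio were each lost without any 1 array, at -0.39 to -0.32 and 0.32 to 0.40. That of Sult2a1 was lost without PFOS array 1, control array 1 or control array 2. Its values were -1.22 to -0.94 over all arrays left out in turn. The ratio call of Sult2a1 was also lost with the authors' deposited value table (-0.54) and with normexp at offset 0 (-0.36). It was lost too with scaling between arrays (-0.79) and in slide row 2 alone (-0.70). That of Hsd17b4 was kept without each array in the ratio (0.61 to 0.77) and lost without PFOS array 1 in Cy5. With slide column as a block, or with median centring in place of loess, the ratio calls of Hsd17b4, Scp2 and Acot8 were all lost.

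**Figure D4:**
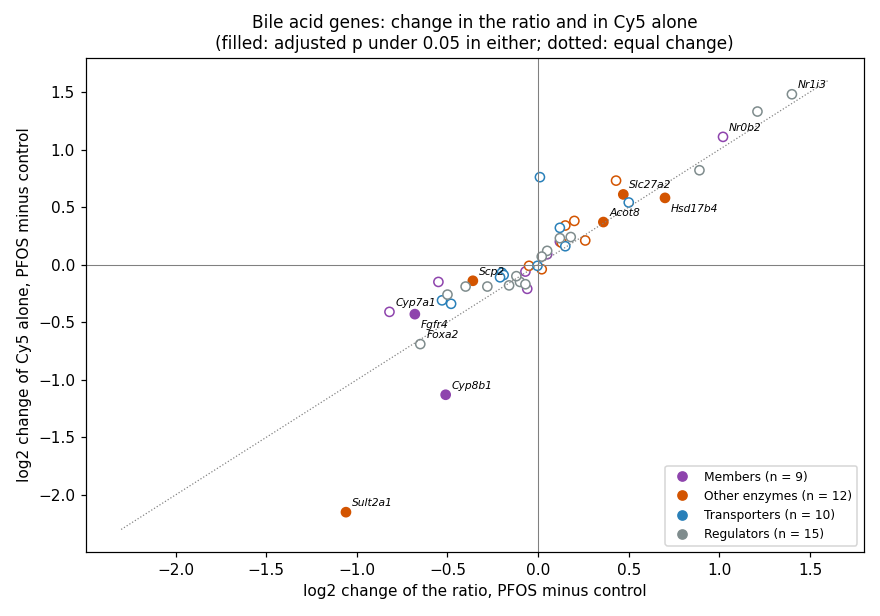
Change of each tested bile acid gene, PFOS minus control, in the log2 ratio (horizontal axis) and in Cy5 alone (vertical axis), coloured by list, filled where limma's adjusted p was under 0.05 in either, with a dotted line of equal change. Cyp8b1 (-0.51 in the ratio, -1.13 in Cy5) and Sult2a1 (-1.06 in the ratio, -2.15 in Cy5) lie farthest below the line.

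Of 14 transporters, 10 were tested and 0 passed the limma test in the ratio or in Cy5, with 2 and 4 at an unadjusted p under 0.05, against 19.9% and 20.9% of all features. The sinusoidal uptake carrier Slc10a1 (-0.20), the canalicular bile salt pump Abcb11 (0.12) and Abcc2 (-0.0036) did not pass. Those with the smallest p in the ratio were Slco1a1 (-0.48, SE 0.17), Abcc4 (0.50, SE 0.21) and Abcg5 (-0.53, SE 0.32), with limma adjusted p of 0.165, 0.219 and 0.382. Another tested probe of Abcc4 differed by 0.18.

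Of 20 regulators, 15 were tested and 0 passed the limma test in the ratio or in Cy5, with 4 at an unadjusted p under 0.05 in each, against 19.9% of all features in the ratio and 20.9% in Cy5. Nr1h4, the bile acid receptor, differed by -0.10, Nr5a2, which drives Cyp7a1 and Cyp8b1 and is the target of Nr0b2, by -0.28, and Hnf4a by 0.12. Among those with the smallest p were the xenobiotic receptor Nr1i3 (1.40, SE 0.46, limma adjusted p = 0.132) and Foxa2 (-0.65, SE 0.25, limma adjusted p = 0.188), a transcription factor of hepatocytes.

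Markers of other cells were read beside these results. Of 35 markers of cholangiocytes, macrophages, endothelium, stellate cells, leukocytes and erythroid cells, 28 were tested, and 0 passed the limma test in the ratio or in Cy5, with 6 at an unadjusted p under 0.05 in each, near the 19.9% and 20.9% of all features. The summed Cy5 signal of the endothelial markers was 4900 to 7090 on PFOS arrays and 6570 to 12100 on control arrays. That of the cholangiocyte markers was 1150 to 1380 on PFOS arrays and 935 to 1160 on control arrays. In the same order, macrophage sums were 31600 to 52100 and 37100 to 61100, and stellate sums 8470 to 9290 and 8390 to 11100. Leukocyte sums were 518 to 720 and 647 to 793, and erythroid sums 115000 to 140000 and 94700 to 247000. In Cy5 all tested endothelial (3), macrophage (8), leukocyte (4) and erythroid (3) markers lay below 0. All 4 cholangiocyte markers lay above 0, and the stellate markers lay 3 on each side. Cyp7a1 is made mainly by hepatocytes near the central vein. Of the markers of lobule zones, the pericentral ammonium transporter Rhbg rose by 1.90 (SE 0.25, limma adjusted p = 0.00455). It was the 1 of 6 tested pericentral markers that passed in the ratio, against 3.99% of all features. At an unadjusted p under 0.05, 4 of the 6 passed, against 19.9% of all features. The 6 went both ways, with a median of -0.09. Below 0 were 3, Glul (-0.29), Oat (-0.57) and Axin2 (-0.44), and above 0 were Rhbg, Slc1a2 (0.80) and Cyp2e1 (0.11). Of 7 periportal markers 0 passed in the ratio, with 2 at an unadjusted p under 0.05, Cyp2f4 (-0.38) and Sds (2.43). In Cy5 1 passed, Cyp2f4, lower in PFOS livers (-0.49, limma adjusted p = 0.0478), against 4.69% of all features. Sds differed there by 2.22 without passing (limma adjusted p = 0.094). The 7 went both ways in Cy5, with 3 above 0 and 4 below 0. The summed Cy5 signal of the pericentral markers was 39300 to 58100 on PFOS arrays and 31000 to 47800 on control arrays. That of the periportal markers was 286000 to 309000 on PFOS arrays and 302000 to 330000 on control arrays. Each sum is weighted towards its brightest gene. These were Cyp2e1 (mean log2 Cy5 15.29 in PFOS and 14.56 in control livers) and Alb (17.76 and 17.70). Alb is counted in both the hepatocyte and the periportal list. The part of these markers in the changes of Fgfr4 and Cyp8b1 was not tested.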

How the data were processed

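Liver RNA of 4 PFOS and 4 control rats was measured on two-colour Agilent rat expression arrays, with groups taken from the labels. The scanner files hold spot intensity values, which the authors deposited from Agilent Feature Extraction (version 10.7.3.1, per the submitters' processing notes). They give median signals and local backgrounds in both channels on a linear scale. The authors' deposited value table holds log2 values, and how they were made is not given in the sources used here. Against the loess-normalized log2 Cy5/Cy3 without background subtraction its columns had correlations of 0.995 to 0.997 and slopes of 0.989 to 0.993, from which scale and direction were read. Its column medians were -0.052, -0.061, -0.061 and -0.053 on PFOS arrays 1 to 4 and -0.048, -0.054, -0.052 and -0.057 on control arrays 1 to 4, and how it was centred is unknown.

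Background was corrected with normexp (offset 50) on all spots, and loess was run within arrays with control spots at weight 0. Spots marked as outliers (733 to 991 per array, control spots not counted) were left out and spots of a probe averaged. For each channel alone, arrays were quantile-normalized. Probe accessions were matched to RefSeq symbols (GRCr8), which named 18004 of 30367 probes. A probe was kept if its Cy5 signal was well above background on 4 or more of 8 arrays (16952 were), the brightest standing for its gene, which left 15201 after 3 features with a missing value were dropped. Groups were compared with limma 3.58.1 in R 4.3.3 (lmFit and eBayes, two-sided, Benjamini-Hochberg), tested on simulated data.

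All members were named, with every other pathway gene called in the ratio or Cy5 and the 3 of smallest p per list, and for Cyp7a1, Cyp8b1 and Nr0b2 the 3 most alike genes. A result withheld for evaluation is not reported here. Transporters and regulators such as Slc10a1, Abcb11, Nr1h4, Nr5a2 and Hnf4a were chosen after their values were seen. The members and lists were chosen with earlier results of these data known. Alternatives covered background, normalization, signal, filter, probe choice, variance model, slide position and leaving out single arrays. Taking each slide row alone in Cy5 was an addition made after seeing the data. All arrays shared 1 slide.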

Additional observations from a re-analysis of the deposited data

Results flagged for a closer look

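Of 120 groups of 4 arrays examined, 7 held an array far from the other 3, about the share of 1 in 20 that chance gives. Each gap is given as a share of the group's range. In the ratio, PFOS array 1 stood at 3.46 for Cyp7b1, with the next at 2.41 (0.889). PFOS array 2 stood at 10.98 for Slc27a2, with the next at 11.32 (0.916). Control array 2 stood at 8.58 for Baat, with the next at 8.41 (0.83), and at 5.40 for Scp2, with the next at 5.24 (0.898). In the log2 Cy3 channel, PFOS array 4 stood at 7.03 for Cyp39a1, with the next at 6.38 (0.931). Control array 4 stood at 7.36 for Fgfr4, with the next at 7.31 (0.95), and at 10.15 for Abcc4, with the next at 10.43 (0.892).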

How the results depend on the processing

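The count of members past the limma test in the ratio was 1, and it was 0 with no background subtraction, with median centring, with the authors' deposited value table, with slide column as a block, and within slide row 1 or slide row 2 alone. It was 0 to 2 over the arrays left out in turn, 2 being without PFOS array 1. Fgfr4 stayed between -0.78 and -0.49 over 22 alternatives and passed in 10, with adjusted p of 0.021 to 0.292. In Cy5 alone the count was 2. It was 1 with 75th percentile scaling, where Fgfr4 was lost (-0.42, limma adjusted p = 0.0901). It was 0 within slide row 1 or slide row 2 alone, and 0 to 2 over the arrays left out. Over 17 alternatives in Cy5, Fgfr4 stayed between -0.61 and -0.38 and passed in 6, and Cyp8b1 passed in 13. With slide column as a block the count was also 2, but Fgfr4 was lost (-0.43, adjusted p = 0.0557) and Cyp7a1 gained (-0.41, adjusted p = 0.0455) beside Cyp8b1. The count in Cy3 was 0 under each alternative. The ratio of Cyp8b1 was 0.21 with processed signals and -0.18 with normexp at offset 0, and passed under none. Sult2a1 turned to 0.37 with processed signals, and its ratio passed in 14 of 22 alternatives. Over all features, the count in the ratio (606) was 239 with median centring, 268 with slide column as a block, 93 and 32 in the slide rows and 350 to 519 over the arrays left out. In Cy5 (713) it was 413 with 75th percentile scaling, 456 with slide column as a block, 114 and 28 in the slide rows and 409 to 698 over the arrays left out. The cause of these shifts was not tested, but the slide rows hold 2 arrays of each group. On all 8 arrays the Cy3 signal of Cyp7a1 was not well above background, and its ratio was -1.38 to -0.38 over the alternatives. No paired analysis was possible because replicate numbers were given in accession order and pair no animals.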
